A study of Mus musculus with 6 samples.

Results

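The genes described here are 10 effector genes of the type I interferon response, Isg15, Ifit1, Ifit2, Ifit3, Mx1, Mx2, Rsad2, Oasl2, Usp18 and Ifi44. They were taken by symbol from the feature lists of 2 mouse brain libraries, and 8 of the 10 had RNA counts among the 32285 mouse genes listed. Mx1 and Mx2 have no RNA value here, and their promoters were taken from the gene annotation. Each library is a 10x Multiome preparation, in which RNA and open chromatin (ATAC-seq) are read from the same single nuclei. All came from C57BL/6J mice that received plasmids by in utero electroporation into the ganglionic eminences, with Foxr2 expressed from a CAG promoter on a piggyBac transposon together with GFP, and Akaluc and GFP on a second one. Foxr2 alone had 2 libraries and Foxr2 p53LOF had 1, in which a guide RNA against p53 with Cas9 was added. Foxr2 alone tissue held lesions and Foxr2 p53LOF tissue a tumor, both taken from mice at their symptomatic end point, and the age of these mice is not given in the sources used here. Electroporated cells are a part of each tissue, so a library also holds nuclei of the host. RNA was compared between Foxr2 p53LOF and Foxr2 alone replicate 1, and for Foxr2 alone replicate 2 the peak list was used.

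Type I interferons, among them interferon beta (Ifnb1), act through the receptor chains Ifnar1 and Ifnar2 and a complex with Stat2 and Irf9 that binds the interferon-stimulated response element (ISRE) of target promoters. Interferon gamma (Ifng) acts through Ifngr1 and Ifngr2 on promoters with the gamma-activated site (GAS), and it induces Irf1, the class II transactivator Ciita, guanylate-binding proteins (Gbp) and immunity-related GTPases. Many genes answer to both, and in the brain microglia, astrocytes and oligodendrocytes all respond to either ligand. Isg15 is a ubiquitin-like modifier, Usp18 removes it from proteins and also dampens signaling at Ifnar2, the Ifit proteins bind foreign RNA, Rsad2 (viperin) makes a chain-terminating nucleotide, Oasl2 belongs to the oligoadenylate synthetase family, and Mx1 and Mx2 are dynamin-like GTPases. The comparison asks whether the response in these libraries was of the type I or of the gamma kind.

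After filtering, the Foxr2 p53LOF library kept 8359 nuclei and the Foxr2 alone library 8316, with a median of 5527 and 3637 UMIs (unique molecules of RNA). Nuclei were clustered jointly and named by marker genes. Named classes held 8127 and 8315 of them. Classes with at least 50 nuclei in both libraries were neuron-like (2264 in Foxr2 p53LOF and 4245 in Foxr2 alone), astrocyte-like (1263 and 427), OPC-like (oligodendrocyte precursor cell, 96 and 169), oligodendrocyte-like (1524 and 3020) and myeloid-like (1705 and 423). COP-like nuclei (committed oligodendrocyte precursor, 1199) and vascular-like nuclei (76) were described in Foxr2 p53LOF only. Apart from the OPC-like and the vascular-like cluster, each cluster came almost wholly from 1 library. Astrocyte-like nuclei were mostly cluster 4 in Foxr2 p53LOF and cluster 11 in Foxr2 alone, oligodendrocyte-like nuclei clusters 3 and 0, and myeloid-like nuclei clusters 5 and 9 against cluster 12. Cluster 4 had Egfr among its leading genes, and at a finer resolution 384 of its nuclei lay in a cluster named OPC-like and 93 in a cluster led by endothelial genes. All of these are counted as astrocyte-like here, and at the finer resolution the log2 ratio of summed effector RNA in astrocyte-like nuclei was 5.5 in place of 5.28. Foxr2 had 42.6 counts per 1000000 UMIs of the class or library (CPM) in Foxr2 p53LOF (95% interval 41.0 to 44.3) and 3.61 in Foxr2 alone (3.04 to 4.25). Trp53 had 33.7 CPM (32.2 to 35.2) against 12.9 (11.8 to 14.1), but counts of RNA molecules do not read the site of the p53 guide and so check nothing about it. The libraries shared 94 barcodes among their kept nuclei. There was 1 library with counts per genotype, so no test was made, differences are between these libraries, and all intervals cover counting error only.

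The promoters of 7 of the 10 genes were found in the RefSeq table for GRCm38.p6 (the mm10 build of the files), and the 180 bases before the first base RefSeq gives for 5 of them are shown because the contrast of ISRE letters turns on them. Capitals mark GAAANNGAA, a core shared by ISRE elements, on either strand. Isg15 is shown at chr4:156200819-156200998 (minus strand), Ifit1 at chr19:34640709-34640888 (plus), Ifit3 at chr19:34583349-34583528 (plus), Rsad2 at chr12:26456453-26456632 (minus) and Oasl2 at chr5:114896754-114896933 (plus), each read 5′ to 3′ along its gene.
Isg15: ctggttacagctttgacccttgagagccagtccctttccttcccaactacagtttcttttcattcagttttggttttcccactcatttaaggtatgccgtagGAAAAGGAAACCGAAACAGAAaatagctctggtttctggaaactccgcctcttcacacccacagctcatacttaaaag
Ifit1: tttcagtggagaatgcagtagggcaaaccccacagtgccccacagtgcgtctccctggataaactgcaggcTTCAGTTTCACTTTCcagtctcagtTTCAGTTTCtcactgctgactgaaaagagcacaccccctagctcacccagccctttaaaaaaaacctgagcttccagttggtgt
Ifit3: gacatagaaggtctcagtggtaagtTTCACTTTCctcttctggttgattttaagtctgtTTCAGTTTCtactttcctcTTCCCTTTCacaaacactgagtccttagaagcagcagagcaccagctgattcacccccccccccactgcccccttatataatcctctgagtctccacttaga
Rsad2: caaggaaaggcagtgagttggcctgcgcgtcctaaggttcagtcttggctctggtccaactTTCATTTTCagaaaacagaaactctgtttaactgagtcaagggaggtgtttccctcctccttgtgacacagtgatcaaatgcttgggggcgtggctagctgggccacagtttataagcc
Oasl2: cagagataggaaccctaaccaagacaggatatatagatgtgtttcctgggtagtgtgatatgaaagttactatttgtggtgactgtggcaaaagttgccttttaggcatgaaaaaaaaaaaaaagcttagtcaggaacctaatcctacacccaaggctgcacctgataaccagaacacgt
Isg15 held 3 cores that began 78, 72 and 66 bases before the start, Ifit1 held 3 (109, 103 and 84 bases before), Ifit3 held 3 (155, 121 and 102 bases before) and Rsad2 held 1 (119 bases before). Ifi44 held 1 that began 3 bases before its start. No match lay in the window of Oasl2 or in either of the 2 promoters listed for Ifit2. Over windows of 300 bases, the core lay in 5 of 8 promoters of the effector genes (62.5%), in 60% of 20 promoters of gamma-led genes and in 8.56% of all 32851 promoters. The GAS letters TTCNNNGAA (both strands) lay in 1 of 8, the promoter of Ifit2, against 40% of the gamma-led promoters and 8.3% of all promoters. The ISRE letters were thus found in like shares of the effector and the gamma-led promoters, and the GAS letters in 1 effector promoter, a share near that of all promoters. A match is a stretch of letters only and was not tested as a binding site.

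RNA of the effector genes was higher in the tumor library in every class compared. In the values that follow, the Foxr2 p53LOF level stands first and the Foxr2 alone level second. Summed over the 8 genes, myeloid-like nuclei had 786.6 CPM (95% interval 764.8 to 808.9) against 19.4 CPM (9.68 to 34.7), a ratio of 40.6-fold (22.7 to 81.3). Astrocyte-like nuclei had 1100 against 28.4 CPM, 38.8-fold (28.8 to 53.6). Oligodendrocyte-like nuclei had 579.6 against 15.8 CPM, 36.8-fold (28.6 to 48.1). These 3 ratios had overlapping intervals. Neuron-like nuclei had 100.2 against 3.06 CPM, 32.8-fold (26.9 to 40.4). OPC-like nuclei had 323.2 against 24.1 CPM, 13.4-fold (7.20 to 27.7), on only 107 and 11 UMIs. At the finer resolution, which moves the 384 nuclei named above into this class, the OPC-like log2 ratio was 4.53 in place of 3.75. In Foxr2 p53LOF, COP-like nuclei had 1016 CPM and vascular-like nuclei 695.6 CPM.

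**Figure D1:**
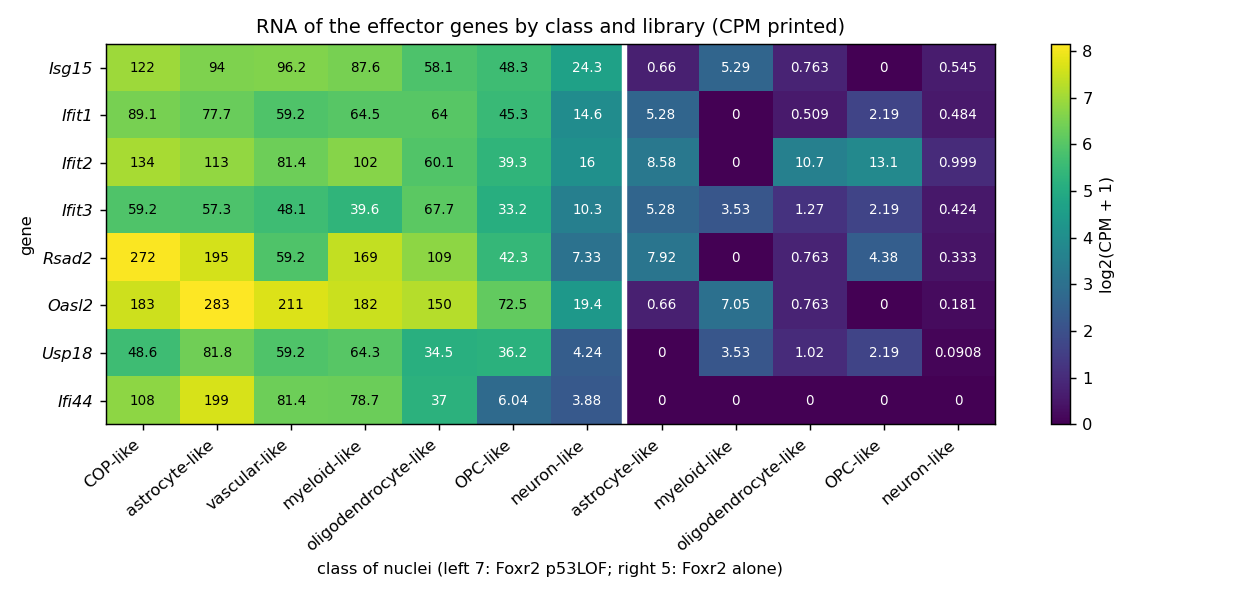
Level of each of the 8 effector genes with RNA counts (rows) in each class of nuclei (columns), printed in CPM, with color for log2(CPM + 1); the 7 columns on the left are Foxr2 p53LOF and the 5 on the right Foxr2 alone. Each gene is at 0 to 13.1 CPM in Foxr2 alone, and Rsad2 in COP-like nuclei (272 CPM) and Oasl2 in astrocyte-like nuclei (283 CPM) lie at the upper end of Foxr2 p53LOF.

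Isg15 had 87.6 against 5.29 CPM in myeloid-like nuclei, 16.6-fold (5.64 to 80.6). In oligodendrocyte-like nuclei it had 58.1 against 0.763 CPM, 76.2-fold (25.8 to 372), and in astrocyte-like nuclei 94.0 against 0.660 CPM. The last ratio was 142-fold (25.5 to 5631), and its width comes from the 1 UMI seen in Foxr2 alone. Isg15 was thus high in all these classes of the tumor library and near the floor in the other. Usp18, whose product removes Isg15 from its targets, had 64.3 against 3.53 CPM in myeloid-like nuclei, 18.2-fold (5.02 to 151). It had 34.5 against 1.02 CPM in oligodendrocyte-like nuclei, 33.9-fold (13.0 to 126). In astrocyte-like nuclei Usp18 had 81.8 CPM against 0 UMIs, at least 41.3-fold higher when the zero is set to a floor of 3 UMIs over the class. Usp18 overlaps the antisense gene Gm44148.

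Ifit1, an RNA-binding protein, had 64.5 CPM against 0 UMIs in myeloid-like nuclei, at least 12.2-fold higher. In oligodendrocyte-like nuclei Ifit1 had 64.0 against 0.509 CPM, 126-fold (34.5 to 1045), and in astrocyte-like nuclei 77.7 against 5.28 CPM, 14.7-fold (7.44 to 34.2). Ifit3, which partners other Ifit proteins, had 67.7 against 1.27 CPM in oligodendrocyte-like nuclei, 53.3-fold (22.6 to 165). Its ratio was 10.9-fold (5.48 to 25.3) in astrocyte-like and 11.2-fold (3.08 to 93.2) in myeloid-like nuclei. Reads of Ifit3 and its close paralog Ifit3b may be split between the genes. Ifit2 stood apart from the other Ifit genes in oligodendrocyte-like nuclei. It had 60.1 against 10.7 CPM there (244 and 42 UMIs), a ratio of 5.63-fold (4.042 to 8.003) that did not overlap those of Ifit1 or Ifit3. Within Foxr2 alone, Ifit2 was at 10.7 CPM in oligodendrocyte-like nuclei (7.70 to 14.4), at 8.58 in astrocyte-like nuclei (4.57 to 14.7), at 13.1 in OPC-like nuclei (4.82 to 28.6), at 0.999 in neuron-like nuclei (0.687 to 1.40) and at 0 UMIs in myeloid-like nuclei (upper bound 6.50). So the glia-like classes carried Ifit2 RNA in Foxr2 alone at levels with overlapping intervals, and the neuron-like level lay below them.

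Rsad2 had 168.8 CPM against 0 UMIs in myeloid-like nuclei, at least 31.9-fold higher. It had 108.6 against 0.763 CPM in oligodendrocyte-like nuclei, 142-fold (48.4 to 693), and 195 against 7.92 CPM in astrocyte-like nuclei, 24.6-fold (14.1 to 47.7). Oasl2 had 181.6 against 7.05 CPM in myeloid-like nuclei, 25.8-fold (10.0 to 94.7). In oligodendrocyte-like nuclei it had 149.5 against 0.763 CPM, 196-fold (66.7 to 953), and in astrocyte-like nuclei 283 CPM against 1 UMI, 429-fold (76.9 to 16940). Both genes therefore differed in every glia-like and myeloid-like comparison by more than the counting error. Ifi44, an interferon-induced cytoplasmic protein, had 0 UMIs in every class of Foxr2 alone. In Foxr2 p53LOF it had 198.6 CPM in astrocyte-like nuclei, at least 100.3-fold higher, 78.7 CPM in myeloid-like nuclei, at least 14.9-fold higher, and 36.9 CPM in oligodendrocyte-like nuclei, at least 48.4-fold higher.

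Counted one by one, genes with at least 10 CPM in 1 library were called when the log2 ratio of (CPM + 1) was at least 1 in size. All 8 effector genes were counted in myeloid-like nuclei and 8 were higher, where 15.7% of all genes counted were higher and 22% lower. The count was 8 of 8 in astrocyte-like nuclei (23.4% of all genes higher, 27.2% lower) and 8 of 8 in oligodendrocyte-like nuclei (12.6% higher, 19.8% lower). It was 7 of 7 in OPC-like nuclei (10.8% higher, 24.3% lower), with Ifi44 under the minimum, and 5 of 5 in neuron-like nuclei (12.7% higher, 18.1% lower), with Rsad2, Usp18 and Ifi44 under it. No effector gene was lower in any class. Apart from Ifit2 in OPC-like and oligodendrocyte-like nuclei, each of these genes reached 10 CPM only through the tumor library, so the counts describe the genes that passed and are read with the levels above. The median log2 ratio of the effector genes was 5.27 in myeloid-like nuclei, 5.15 in astrocyte-like nuclei, 5.16 in oligodendrocyte-like nuclei, 3.55 in OPC-like nuclei and 3.40 in neuron-like nuclei, and that of all genes lay between -0.20 and 0.04. With genes at 0 UMIs in Foxr2 alone set to their bound, the medians were 3.87, 4.91, 5.25, 3.42 and 3.40. The bound was taken without the added 1 CPM, so it is on another scale than the other ratios. Where the floor lies under 1 CPM, as in oligodendrocyte-like nuclei (0.763 CPM), it can raise a median.

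Within Foxr2 p53LOF, each gene can be ordered over the 7 classes. COP-like nuclei had the highest value for Isg15 (122 CPM), Ifit1 (89.1), Ifit2 (134) and Rsad2 (272), and astrocyte-like nuclei for Oasl2 (283), Usp18 (81.8) and Ifi44 (199). Ifit3 was highest in oligodendrocyte-like nuclei (67.7 CPM), an order that COP-like nuclei (59.2) did not clearly follow, since the interval of their log2 difference, -0.01 to 0.40, held 0. All 8 genes were lowest in neuron-like nuclei, from 3.88 CPM for Ifi44 to 24.3 for Isg15, although for Ifi44 the OPC-like value rested on 2 UMIs and the interval of its log2 difference from neuron-like nuclei, -2.43 to 2.53, held 0. Rsad2 gave the clearest order, with COP-like above astrocyte-like, myeloid-like (169), oligodendrocyte-like (109) and vascular-like nuclei (59.2), each step larger than its counting error. Ifi44 also varied widely, with astrocyte-like nuclei 0.87 above COP-like nuclei on the log2 scale (0.77 to 0.97). Isg15 was higher in COP-like nuclei (115.9 to 129 CPM) than in astrocyte-like (88.6 to 99.7) and myeloid-like nuclei (80.4 to 95.3), whose intervals overlapped, while vascular-like nuclei could not be placed among them on 26 UMIs. Genes of the list thus did not share 1 order of classes.

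RNA freed from broken nuclei is counted in all droplets, and RNA of the plasmids (GFP, PQR and Akaluc) served as a measure of RNA from electroporated cells. In Foxr2 p53LOF the plasmid RNA of neuron-like nuclei was 11.3% of that of astrocyte-like nuclei, and their summed effector RNA was 9.10%. For OPC-like nuclei the values were 30.3% and 29.4%. In both classes the effector RNA did not exceed the plasmid RNA. With COP-like nuclei as the reference in place of astrocyte-like nuclei, the plasmid RNA of neuron-like nuclei was 9.24% and their effector RNA 9.86%, and for OPC-like nuclei 24.8% and 31.8%. The summed levels in these classes thus lay close to the plasmid level, with single genes on both sides of it. The sums cannot tell expression there from free RNA. Oligodendrocyte-like nuclei had 28.4% of the plasmid RNA and 52.7% of the effector RNA, myeloid-like nuclei 32.7% and 71.5%, vascular-like nuclei 39.5% and 63.2%, and COP-like nuclei 122% and 92.4%. All 8 genes lay above the plasmid level in myeloid-like nuclei and 7 of 8 in oligodendrocyte-like nuclei, where Ifi44 lay below. With COP-like nuclei as the reference Ifi44 lay above it there too, at 34.05% beside 23.2%. In neuron-like nuclei Isg15 (25.8%), Ifit3 (18.1%), Ifit1 (18.8%) and Ifit2 (14.2%) lay above 11.3%, while Oasl2 (6.86%), Usp18 (5.18%), Rsad2 (3.76%) and Ifi44 (1.96%) lay below. With COP-like nuclei as the reference 5 genes lay above, Oasl2 among them, and Rsad2 and Ifi44 still below. The genes did not keep 1 ratio either, with 2.11 UMIs of Ifi44 per UMI of Isg15 in astrocyte-like nuclei (1.97 to 2.27) and 0.160 in neuron-like nuclei (0.128 to 0.198). Summed myeloid markers (12 genes, with at most 1 of them at 0 in any class of Foxr2 p53LOF) were 2.77% to 11.1% of their myeloid-like level in the other named classes. Whether electroporated neurons carry the plasmid RNA themselves was not tested.

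**Figure D2:**
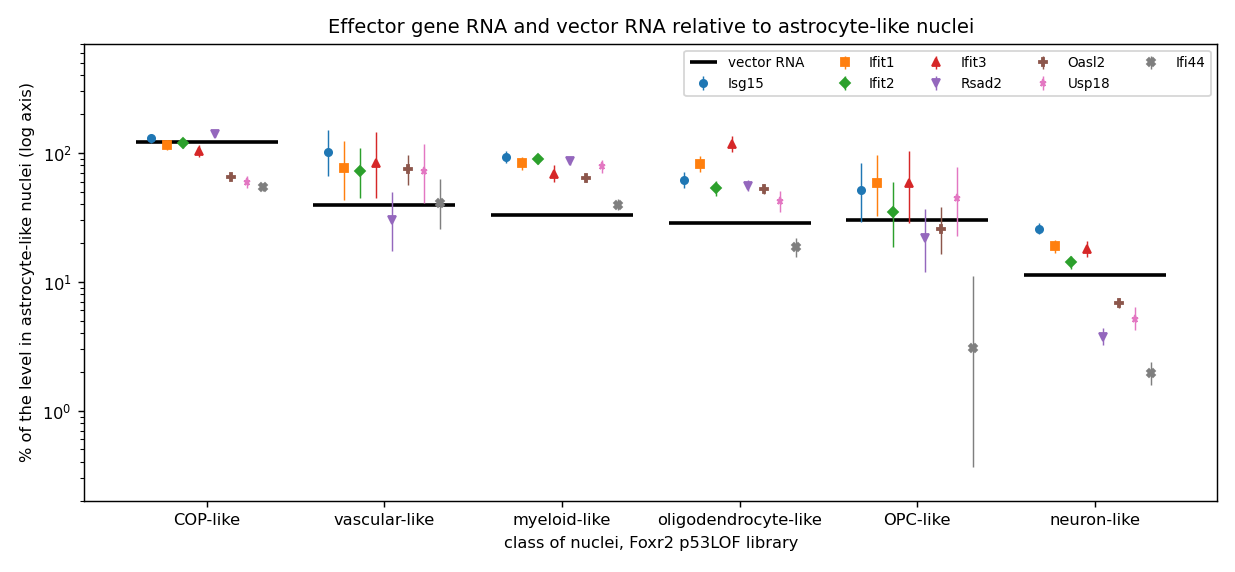
RNA of each effector gene in 6 classes of Foxr2 p53LOF as a percentage of its level in astrocyte-like nuclei (points, log axis, bars for 95% counting intervals), with the same percentage for plasmid RNA (black lines). All 8 genes lie above the line in myeloid-like nuclei, and 4 of 8 lie below it in neuron-like nuclei.

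Genes led by interferon gamma were higher in the tumor library as well. The list of 27 (Gbp genes, immunity-related GTPases, MHC class II genes, Irf1, Ciita, Cxcl9 and others) summed to 6183 CPM in myeloid-like nuclei against 271.5 CPM, 22.8-fold (19.4 to 26.8). In astrocyte-like nuclei the sum was 84.6-fold higher (70.5 to 102), and in oligodendrocyte-like nuclei 149-fold (116 to 194). The effector genes had ratios of 40.6, 38.8 and 36.8 in the same classes, so the ratio of the gamma-led sum was the larger in astrocyte-like and oligodendrocyte-like nuclei, while in myeloid-like nuclei the intervals overlapped. In oligodendrocyte-like nuclei of Foxr2 alone, Ifit2 held 42 of the 62 effector UMIs. The contrast of the sums in that class thus leans on 1 gene, and it was not repeated without Ifit2. A list of 35 other type I genes was 3.94-fold (3.65 to 4.27), 9.29-fold (8.57 to 10.1) and 10.4-fold (9.60 to 11.3) higher. Sums are led by the genes with the most RNA, so medians are given too. The median log2 ratio of the gamma-led genes was 5.19 in myeloid-like nuclei, 5.78 in astrocyte-like and 5.62 in oligodendrocyte-like nuclei, and that of the other type I genes 2.49, 3.97 and 3.92. With genes at 0 UMIs in Foxr2 alone at their bound, again without the added 1 CPM, the gamma-led medians were 3.95, 5.54 and 5.92. Of the gamma-led genes counted, 21 of 23, 22 of 22 and 20 of 20 were higher in these classes, and of the other type I genes 29 of 32, 30 of 30 and 18 of 19. In neuron-like and OPC-like nuclei 12 of 12 and 16 of 16 gamma-led genes were higher, and 8 of 9 and 18 of 20 of the other type I genes. As with the effector genes, most gamma-led genes passed the minimum only through the tumor library, in neuron-like and oligodendrocyte-like nuclei every one of them, so these counts are a description too, and they include genes at or below the myeloid marker level. With no minimum 23 of 27 were higher in neuron-like nuclei, and Ido1, an enzyme of tryptophan breakdown chosen here after its values were seen, had 0.278 against 3.24 CPM.

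**Figure D3:**
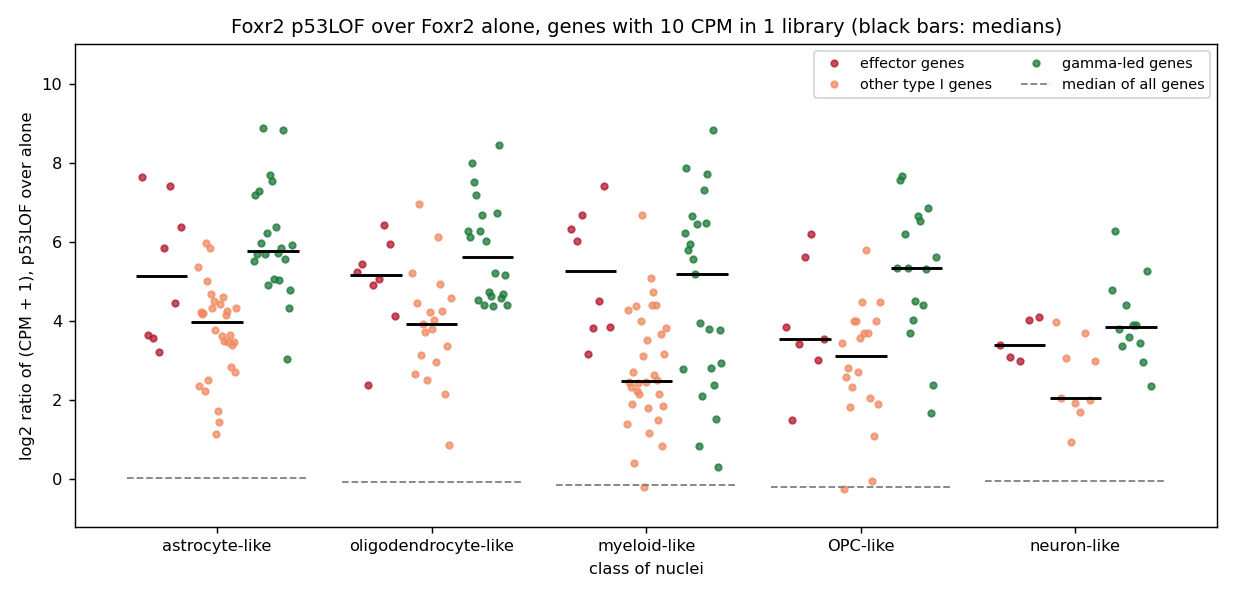
Log2 ratio of (CPM + 1), Foxr2 p53LOF over Foxr2 alone, for each counted gene of 3 lists in 5 classes; black bars are medians of a list and dashed lines medians of all genes. The medians of the effector genes lie between 3.40 and 5.27, those of the gamma-led genes between 3.84 and 5.78 and those of the other type I genes between 2.06 and 3.97.

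Cxcl9 and Ciita, which answer chiefly to interferon gamma, were examined by class. In myeloid-like nuclei Cxcl9, a chemokine for T cells, had 54.7 CPM against 0 UMIs, at least 10.35-fold higher. Cxcl9 was at 3.96 CPM in astrocyte-like and 2.96 in oligodendrocyte-like nuclei. Ciita had 231 CPM in myeloid-like nuclei, at least 43.7-fold higher, and 50.6 CPM in astrocyte-like nuclei, at least 25.55-fold higher, each against 0 UMIs. In oligodendrocyte-like nuclei Ciita had 5.42 against 0.254 CPM. H2-Ab1, an MHC class II gene under Ciita, was at 867 against 8.81 CPM in myeloid-like nuclei, 98.3-fold (42.1 to 303). The myeloid-like class was made up differently in the 2 libraries. At the finer resolution, Foxr2 p53LOF had 198 dendritic nuclei with 11290 CPM of gamma-led and 714 CPM of effector RNA. Its cluster of 485 nuclei led by genes such as Siglech and P2ry12 had 3963 and 557.7 CPM. The 415 nuclei of Foxr2 alone in cluster 12 had 268.5 and 20.8 CPM. In all myeloid-like ratios, cell type and genotype therefore cannot be told apart. The same limit holds for the astrocyte-like ratios, which mostly set cluster 4 of the tumor library beside cluster 11 of the other. Those nuclei also differed in plasmid RNA, which reached 926.4 CPM (909.2 to 943.9) in the tumor library against 174.3 CPM (153.9 to 196.6). Iigp1, an immunity-related GTPase, had 1061 against 1.32 CPM in astrocyte-like nuclei (804-fold, 222 to 6637) and 524 against 0.509 CPM in oligodendrocyte-like nuclei (1030-fold, 285 to 8513). Among the other type I genes, the DNA-sensing family gene Ifi211 had 101.5 CPM against 0 UMIs in myeloid-like nuclei, at least 19.2-fold higher, and Oas2 had 72.4 against 1.76 CPM, 41.1-fold (7.34 to 1627). Myeloid-like nuclei thus held high RNA of genes tied to either ligand. In glia-like nuclei this was so for the GTPase genes and not for all: Cxcl9 was at 7.23% of its myeloid-like level in astrocyte-like nuclei (5.21 to 9.83) and 5.40% in oligodendrocyte-like nuclei, beside 6.60% and 4.76% for the myeloid markers. Cxcl9 lay above the markers in COP-like nuclei, at 13.5% (10.5 to 17.2) beside 6.60%, and had its highest level in vascular-like nuclei, at 99.9 CPM (27 UMIs). Measured against these markers in the same way, 24 of 26 gamma-led genes lay above the marker level in astrocyte-like nuclei, 19 in oligodendrocyte-like nuclei, 18 in neuron-like nuclei and 16 in OPC-like nuclei. Ciita, H2-Aa, H2-Eb1 and Cd74 lay below it in oligodendrocyte-like and in neuron-like nuclei, H2-Ab1 also in the latter, and whether their RNA there came from other nuclei was not tested. The markers gauge RNA from myeloid-like nuclei only. Many gamma-led genes, such as Gbp4 (773 against 130 CPM), were higher in astrocyte-like than in myeloid-like nuclei, while Ciita and the MHC class II genes were lower. Free RNA from astrocyte-like nuclei was not tested for them, as gamma-led genes were not set beside plasmid RNA. The share of all genes above the markers was not taken. Ciita in neuron-like nuclei had 1.15 CPM against 0.787 CPM in Foxr2 alone, where myeloid-like nuclei had 0 UMIs of it.

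Components of both pathways were present. Stat2, a part of the type I complex, was 4.69-fold (3.46 to 6.53), 13.7-fold (9.96 to 19.4) and 19.5-fold (15.5 to 24.9) higher in myeloid-like, astrocyte-like and oligodendrocyte-like nuclei. Irf9 was 2.75-fold (1.37 to 6.44), 5.01-fold (2.96 to 9.22) and 7.41-fold (4.45 to 13.1) higher in the same order. Both are themselves interferon-induced genes. The receptor chains Ifnar1 and Ifnar2 did not pass 2-fold in any class, with 1.15-fold (0.871 to 1.53) and 1.07-fold (0.890 to 1.30) in myeloid-like nuclei. Ifngr1 was lower in myeloid-like nuclei, at 148 against 499 CPM, 0.297-fold (0.259 to 0.340), and in astrocyte-like nuclei, at 14.1 against 31.7 CPM, 0.446-fold (0.322 to 0.629). Ifngr2 had 144 against 209.8 CPM in myeloid-like nuclei, 0.689-fold (0.568 to 0.841).

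RNA of the ligands was sparse. Ifnb1 had 43 UMIs in 15 of the 8359 tumor nuclei and was seen in 0 of 8316 nuclei of Foxr2 alone, which allows up to 0.0361% of nuclei with a UMI and sets no limit on nuclei that express the gene at this depth. Ifng had 37 UMIs in 25 nuclei of Foxr2 p53LOF and likewise 0 in Foxr2 alone. Clustering at a finer resolution placed 25 UMIs of Ifng in 13 of 119 T/NK-like nuclei and 27 UMIs of Ifnb1 in 11 of 864 nuclei of a myeloid-like cluster led by Mmp12, Msr1 and Ccr2. A single nucleus of the finer cluster led by endothelial genes held 11 further UMIs of Ifnb1, and it lay in the astrocyte-like cluster 4 at the coarser resolution. Of the numbered interferon alpha genes and the other ligands searched, none passed 3 UMIs in either library. Both kinds of ligand were thus detected in the tumor library, and most of their UMIs lay in different clusters.

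Effector RNA was higher in myeloid-like nuclei with Ifnb1. In the myeloid-like cluster led by Mmp12, the 11 nuclei with an Ifnb1 UMI had 7521 CPM of effector RNA (6911 to 8171) and the 853 others 856 CPM (823 to 891), 8.78-fold higher (7.997 to 9.631). The gamma-led sum did not show this, with 5627 against 6782 CPM, 0.830-fold (0.751 to 0.914), and the other type I genes were 2.06-fold higher (1.91 to 2.21). Of the 11 nuclei, 2 held 346 of the 560 effector UMIs and 327 of the 419 gamma-led UMIs. Without the 2 nuclei with the most UMIs of each list, the effector ratio was 6.33-fold (5.48 to 7.29), the gamma-led ratio 0.344-fold (0.277 to 0.422) and that of the other type I genes 1.08-fold (0.938 to 1.24). Nuclei were left out on the Ifnb1 side only, which lowers a ratio by its making. These values therefore show only how far the sums rested on 2 nuclei. By gene, Ifit1 was 20.5-fold higher (15.8 to 26.5), Rsad2 17.6-fold (15.1 to 20.5), Ifit2 6.87-fold (5.164 to 8.999), Ifit3 6.23-fold (3.62 to 10.2), Isg15 5.45-fold (3.88 to 7.49), Oasl2 4.49-fold (3.42 to 5.82) and Ifi44 4.003-fold (2.513 to 6.108). Usp18 did not follow them, at 40.3 against 58.6 CPM, 0.687-fold (0.140 to 2.04), on too few UMIs to place it. The effector UMIs of the 11 nuclei ran from 6 through a median of 26 to 226, and those of the other nuclei from 0 through a median of 1 to 68. Of the others, 94 (11.02%) reached 6 or more, so high effector RNA was also found without a UMI of Ifnb1. Median UMIs were 3114 with Ifnb1 and 2629 without. In CPM, the 11 nuclei ran from 457 through 6548 to 16600, and 10 of 11 lay above the level of the others summed. These nuclei share 1 library and are not replicates.

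The same split by Ifng in T/NK-like nuclei gave 501 CPM of effector RNA in 13 nuclei with a UMI and 436 in 106 without, 1.15-fold (0.739 to 1.73). The gamma-led sum there was 0.730-fold (0.615 to 0.860), and 0.368-fold (0.277 to 0.481) without the 2 nuclei that held 103 of its 159 UMIs. In the COP-like cluster, 8 nuclei had 1 UMI of Ifng each and 2.44-fold more effector RNA (2.20 to 2.71) than the 899 others. Of their UMIs, 268 and 73 came from 2 nuclei, and the other 6 held between 3 and 12. The nucleus with 268 had 30927 UMIs in all and was not called a doublet. Without these 2 nuclei, which were left out for their high counts, the other 6 had 357 CPM of effector RNA, 0.355-fold (0.256 to 0.480) of the others, so the higher sum rested on them. The gamma-led sum was 1.27-fold (1.17 to 1.37) and the other type I sum 1.64-fold (1.51 to 1.78) in the 8 nuclei, and 0.626-fold (0.547 to 0.712) and 0.657-fold (0.564 to 0.760) without the 2 nuclei with the most UMIs of each list. In both clusters nuclei were left out on the Ifng side only, which lowers a ratio by its making. The ratios after leaving nuclei out are therefore not read as differences. Across the myeloid-like class, the 1% of nuclei with the most effector UMIs held 23.0% of them, against 17.9% in COP-like, 10.6% in oligodendrocyte-like and 8.63% in astrocyte-like nuclei.

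Shares of nuclei with a UMI of any effector gene were taken after each nucleus was thinned to 1000 UMIs, leaving out shallower nuclei. The share was 51.5% of 1261 astrocyte-like nuclei in Foxr2 p53LOF (95% exact binomial interval 48.7 to 54.3) and 2.11% of 426 in Foxr2 alone (0.970 to 3.97). It was 41.5% of 1673 (39.2 to 44.0) against 1.08% of 279 (0.222 to 3.11) in myeloid-like nuclei and 37.1% of 1509 (34.7 to 39.6) against 1.52% of 2106 (1.04 to 2.14) in oligodendrocyte-like nuclei. Neuron-like nuclei had 9.15% (7.99 to 10.4) against 0.473% (0.289 to 0.730), OPC-like nuclei 29.5% (20.6 to 39.7) against 4.14% (1.68 to 8.35), COP-like nuclei 43.9% and vascular-like nuclei 43.2%. No class here can be taken to lack these genes, so no background share is given. The plasmid RNA above is a measure of RNA from electroporated cells and not a background level of each gene. UMIs of the effector genes and of the gamma-led genes met in the same nuclei of Foxr2 p53LOF, more clearly in some classes than in others. Of astrocyte-like nuclei with a gamma-led UMI 55.3% also had an effector UMI (52.4 to 58.2), against 18.8% of those without (12.5 to 26.5). The shares were 50% and 20.5% in COP-like, 42.7% and 22.8% in oligodendrocyte-like and 42.2% and 30.2% in myeloid-like nuclei. In neuron-like nuclei they were 11.8% and 8.08%, in OPC-like nuclei 39.3% and 15.4% and in vascular-like nuclei 44.6% and 33.3%. The intervals overlapped in myeloid-like, neuron-like, OPC-like and vascular-like nuclei. They did not in astrocyte-like, COP-like and oligodendrocyte-like nuclei.

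Of the 5 genes most like the effector genes in level, 4 were gamma-led genes and F830016B08Rik was in none of the lists. Over 19 clusters of 1 library with at least 50 nuclei, the mean z-score of log2(CPM + 1) of the 8 effector genes had its highest Pearson correlations, among 15140 genes, with Gbp4 (0.98), Gbp3 (0.98), Iigp1 (0.98), F830016B08Rik (0.98) and Gbp6 (0.98). Gbp2 stood at rank 11, Irf1 at 64, Ciita at 206 and Cxcl9 at 301. Clusters of a library share its depth and free RNA, and the 2 libraries lie far apart, so the values are a description. Within the 11 clusters of Foxr2 p53LOF the correlation was 0.97 for Iigp1 and Gbp3, 0.98 for Irf1, 0.77 for Ciita and 0.61 for Cxcl9. Within the 8 clusters of Foxr2 alone it was 0.49 for Iigp1, 0.51 for Gbp3, 0.59 for Irf1, -0.89 for Ciita and -0.49 for Cxcl9, at levels near the floor.

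Promoter peaks were called at most of the effector genes in each of the 3 libraries. A peak within 1000 bases of the gene start was called for 10 of 10 genes in Foxr2 p53LOF, for 8 of 10 in Foxr2 alone replicate 1 and for 9 of 10 in Foxr2 alone replicate 2. Of all protein-coding genes 65.4%, 63.7% and 62.9% had such a peak. Ifi44 had a peak only in Foxr2 p53LOF (chr3:151749513-151750399, mm10, over the gene start, with a second one at chr3:151748274-151749074 inside the gene). Isg15 had one in Foxr2 p53LOF (chr4:156200393-156201308) and in Foxr2 alone replicate 2 (chr4:156200382-156201286) but not in replicate 1. A peak was therefore present without the tumor genotype for 9 of the 10 genes. The peaks of Oasl2 began 127 to 156 bases after its annotated start in all 3 libraries and did not cover the stretch printed above, while those of Ifit1, Ifit3 and Rsad2 covered the start. The gamma-led genes had peaks at 25, 16 and 19 of 27, and the other type I genes at 35, 26 and 33 of 35.

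**Figure D4:**
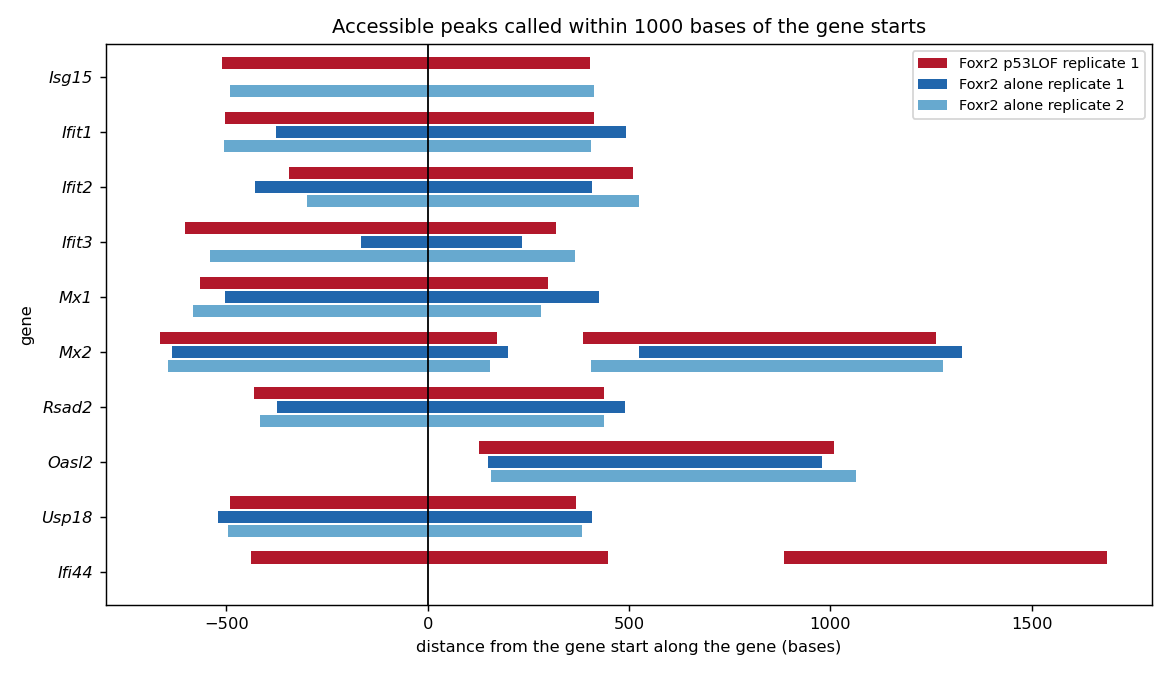
Peaks called within 1000 bases of the start of each of the 10 genes, as distance in bases along the gene from its annotated start (vertical line), in 3 libraries. Isg15 lacks a peak in Foxr2 alone replicate 1, Ifi44 in both Foxr2 alone libraries, and the peaks of Oasl2 begin 127 to 156 bases after the start.

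Fragments at these peaks were compared for the 8 genes with a peak in both libraries with counts, per 1000000 fragments in peaks of the class. Myeloid-like nuclei had 280.5 in Foxr2 p53LOF (267.3 to 294.2) and 103 in Foxr2 alone (87.6 to 121). Astrocyte-like nuclei had 258 against 69.0, oligodendrocyte-like nuclei 273 against 103.5, OPC-like nuclei 215 (165.7 to 273.6) against 111 (88.5 to 138) and neuron-like nuclei 114 (107.7 to 121.3) against 40.3 (38.1 to 42.7). The intervals of the libraries did not overlap in any of these classes, but peaks were called per library and their bounds differ. In Foxr2 alone, Mx2 and Ifit2 held 688.5 and 259.5 of the 1076 fragments of oligodendrocyte-like nuclei. In neuron-like nuclei they held 536.5 and 292.5 of 1195. The sums of these classes therefore do not describe each gene, and values by gene are given below. Over all 10 genes, which each had a peak in Foxr2 p53LOF, myeloid-like nuclei of that library lay 1.40 above neuron-like nuclei on the log2 scale (1.291 to 1.505) and astrocyte-like nuclei 1.33 (1.23 to 1.44). Oligodendrocyte-like nuclei there lay 1.254 above (1.134 to 1.373) and OPC-like nuclei 0.8572 (0.4736 to 1.218). Over the 8 genes with a peak in Foxr2 alone, its myeloid-like nuclei lay 1.356 above neuron-like nuclei (1.105 to 1.597). Its oligodendrocyte-like nuclei lay 1.359 above (1.239 to 1.479), OPC-like nuclei 1.464 (1.114 to 1.778) and astrocyte-like nuclei 0.7759 (0.4972 to 1.044). These classes thus lay above neuron-like nuclei in both libraries, over differing gene sets.

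**Figure D5:**
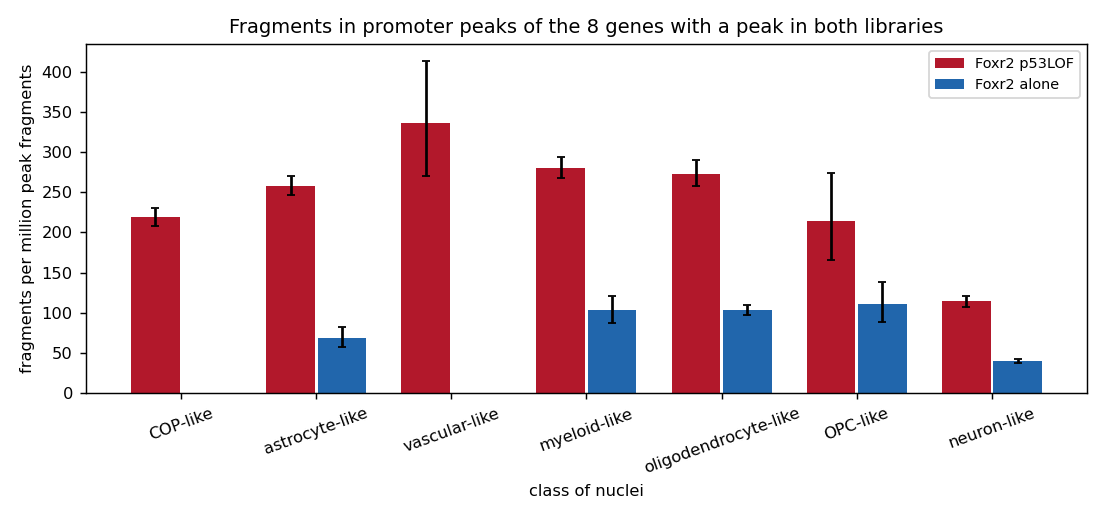
Fragments in promoter peaks of the 8 genes with a peak in both libraries, per 1000000 fragments in peaks of the class, for 7 classes of Foxr2 p53LOF and 5 of Foxr2 alone (bars; error bars are 95% counting intervals). Foxr2 p53LOF bars run from 114 in neuron-like to 336 in vascular-like nuclei and Foxr2 alone bars from 40.3 to 111. Mx2 and Ifit2 hold most of the fragments in oligodendrocyte-like and neuron-like nuclei of Foxr2 alone.

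Genes differed in how much of this accessibility Foxr2 alone already had. In oligodendrocyte-like nuclei Ifit1 had 21.8 fragments per 1000000 (17.5 to 26.9) against 0.577 (0.212 to 1.26), Ifit3 had 16.0 against 0.481, and Oasl2 18.3 against 0.433. The peaks of these genes were thus called in Foxr2 alone at few fragments. The Ifit2 promoter had 28.6 (23.6 to 34.3) against 24.9 (22.01 to 28.18), with overlapping intervals, in the class in which Ifit2 RNA had its smallest ratio but for OPC-like nuclei. The Mx2 peaks had 121.5 (111.0 to 132.8) against 66.2 (61.4 to 71.3), and the annotation lists Mx2 as a polymorphic pseudogene. In myeloid-like nuclei Mx1 had 27.7 (23.7 to 32.2) against 5.95 (2.72 to 11.3) and Usp18 47.1 (41.80 to 52.97) against 16.9 (10.97 to 24.80). Isg15, with no peak to count in Foxr2 alone, had 24.96 fragments per 1000000 in astrocyte-like, 22.5 in myeloid-like and 6.19 in oligodendrocyte-like nuclei of Foxr2 p53LOF. Ifi44 had 15.9, 9.18 and 3.22 in the same order, which is also the order of its RNA.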

How the data were processed

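Single nuclei of mouse brain were profiled for RNA and ATAC-seq. As deposited, the values are raw counts per barcode: molecules (UMIs) of each gene and transposase cut events in each peak. The authors ran Cell Ranger ARC 2.0.0 on mm10 plus vector sequences, with cells and peaks called library by library. Libraries held 96929539 UMIs in 10379 barcodes (Foxr2 p53LOF) and 59719847 in 10096 (Foxr2 alone replicate 1). Counts of Foxr2 alone replicate 2 were not analysed here. Peak counts were even in 80.7% and 82.9% of entries and were divided by 2 to give fragments.

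Nuclei with at least 400 genes and 400 fragments, at most 5% mitochondrial UMIs and no more than the study's upper limits were kept, and 353 and 540 doublets called by Scrublet (scanpy 1.11.5) were removed. The study's doublet caller was not used. Clustering (leidenalg 0.10.2, resolution 0.5, seed 100, Python 3.11.15) left the genes of all lists and the vectors out. Clusters were named by marker genes, so names are rebuilt and can differ from those of the study, and dendritic nuclei were merged into the myeloid-like class. A cluster of 232 nuclei of Foxr2 p53LOF stayed unnamed.

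CPM are UMIs per 1000000 UMIs of a class. Intervals are exact at 95% (Poisson, binomial, or conditional binomial for ratios; scipy 1.17.1), and the floor is 3 UMIs per class. Calls used (CPM + 1), a minimum of 10 CPM in 1 library and 2-fold. The code was tested on simulated data. The median-of-ratios shift between the libraries was -0.05 to -0.30 (log2), and correcting for it, as an alternative, makes each ratio larger by that size. Coordinates are 1-based in mm10, and promoter windows (250 bases before to 50 after a start) come from RefSeq. Gene starts come from the feature lists, and for Mx1 and Mx2 from GENCODE M21.

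The members and gene lists were chosen with earlier results of these data known, and cluster naming thresholds and 5 further alternatives were set after the data were seen. Named genes are the 10 members, the 6 genes of each list with the largest ratio in myeloid-like nuclei, from which examples were taken, plus Cxcl9, Ciita, Gbp2 and Irf1, signaling genes with at least 3 UMIs, and the 5 genes most like the members. Of the signaling genes, 1 is not reported here.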

Additional observations from a re-analysis of the deposited data

Results flagged for a closer look

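One cluster of Foxr2 p53LOF, of 232 nuclei, was left out of the comparisons of classes because it held leading genes of both astrocytes and T or NK cells. Its effector RNA summed to 619.2 CPM (571 to 671), a level within the range of the named classes (100.2 to 1100 CPM). At the finer resolution 119 T/NK-like nuclei, most of them from this cluster, had 445.1 CPM (382 to 515) and held 25 of the 37 UMIs of Ifng. Foxr2 alone had 1 nucleus in the cluster and gives no value to set beside the whole of it. Of the 232 nuclei, 126 lay at the finer resolution in an astrocyte-like cluster of 137 led by Etnppl, with 841.8 CPM (781.7 to 905.2). Astrocyte-like cluster 11 of Foxr2 alone also had Etnppl among its leading genes, and had 28.61 CPM (20.71 to 38.54). Plasmid RNA was 812.8 CPM in the unnamed cluster and 174.3 CPM in astrocyte-like nuclei of Foxr2 alone. Whether these groups hold the same kind of cell was not tested.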

How the results depend on the processing

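Ratios of single genes, signaling genes and promoter fragments between the libraries were not repeated under the alternatives. Summed effector RNA, counts of genes, gamma-led medians and shares of nuclei were repeated, and none reversed between the libraries. Some orders of classes did, since shares were higher in vascular-like (46.4%) than in COP-like nuclei with a minimum of 1000 genes and fragments, promoter fragments were higher in astrocyte-like (1.46) than in myeloid-like nuclei (1.315) of Foxr2 p53LOF when scaled to promoter peaks, and the reference class set whether neuron-like and OPC-like nuclei lay above plasmid RNA. Median-of-ratios scaling and leaving out the effector gene with the most UMIs kept the direction of each log2 ratio and moved no count by more than 1. A peak window of 250 bases changed no count of effector genes, and the gamma-led and other type I counts by at most 2. A window of 5000 bases gave Foxr2 alone replicate 1 a peak at 9 effector genes in place of 8 and Foxr2 alone replicate 2 a peak at 25 gamma-led genes in place of 19, and a resolution of 1.0 gave 22 higher gamma-led genes in OPC-like nuclei in place of 16 and 8 effector genes in place of 7. With doublets kept, the log2 ratio of the summed effector genes in neuron-like nuclei was 4.21 in place of 5.04, and 2 effector genes were counted and higher in place of 5, since 2 neuron clusters of Foxr2 p53LOF lost their name there. With a minimum of 1000 genes and fragments the oligodendrocyte-like ratio was 5.60 in place of 5.2. With no minimum CPM, 8 effector genes and 23 gamma-led genes were higher in neuron-like nuclei in place of 5 and 12, and the gamma-led medians were 2.53 in neuron-like, 4.22 in OPC-like, 4.71 in oligodendrocyte-like and 3.87 in myeloid-like nuclei. Without its most abundant gene the gamma-led median in myeloid-like nuclei was 4.57.

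Shares of nuclei with an effector UMI rose with depth. With no thinning they were 83.4% in COP-like, 57.3% in OPC-like, 89.3% in astrocyte-like, 70.6% in myeloid-like, 57.0% in neuron-like, 59.8% in oligodendrocyte-like and 69.7% in vascular-like nuclei of Foxr2 p53LOF, and 8.66% in astrocyte-like and 2.17% in neuron-like nuclei of Foxr2 alone. Thinned to 2000 UMIs they were 58.4%, 42.05%, 66.8%, 59.6%, 18.2% and 54.9% in the first 6 of these classes, and 5.99% in astrocyte-like nuclei of Foxr2 alone. With a minimum of 1000 genes and fragments they were 39.9% in COP-like nuclei of Foxr2 p53LOF, and 5.21% in myeloid-like and 0.608% in oligodendrocyte-like nuclei of Foxr2 alone. With doublets kept they were 3.85% in neuron-like and 34.5% in oligodendrocyte-like nuclei of Foxr2 p53LOF and 1.52% in OPC-like nuclei of Foxr2 alone. Apart from the naming of clusters, the cause was not tested.

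Promoter fragments over neuron-like nuclei (log2; 10 genes in Foxr2 p53LOF and 8 in Foxr2 alone), when scaled to fragments in promoter peaks, were 1.22 for COP-like and 1.46 for astrocyte-like nuclei of Foxr2 p53LOF, and 1.02 for OPC-like, 0.39 for astrocyte-like, 0.79 for myeloid-like and 0.91 for oligodendrocyte-like nuclei of Foxr2 alone. With doublets kept they were 1.20 for COP-like and 1.47 for astrocyte-like nuclei of Foxr2 p53LOF and 1.24 for oligodendrocyte-like nuclei of Foxr2 alone.

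Among the named classes described, depth limits most the vascular-like class of Foxr2 p53LOF, where 3 UMIs stand for 11.1 CPM, then the OPC-like class, where they stand for 9.06 CPM in Foxr2 p53LOF and 6.57 in Foxr2 alone, and the myeloid-like class of Foxr2 alone, where they stand for 5.29 CPM. No paired analysis was possible because 1 library per genotype had counts and no test was made. For the same reason no replicate could be left out, and genotype, animal and library cannot be told apart.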
